A study of Mus with 3 samples.

Results

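The genes described are 10 mouse genes of T cell costimulation and checkpoint control, Cd28, Icos, Tnfrsf4, Tnfrsf9, Tnfrsf18, Ctla4, Pdcd1, Lag3, Cd274 and Pdcd1lg2. They were taken by symbol from the 27998 genes of 3 single-cell count matrices of whole lung, and each symbol matched 1 row. The libraries were DJ-1 KO OVA (mice without DJ-1, a redox sensor and product of Park7, challenged with ovalbumin, a model allergen), WT OVA (wild-type mice with the same challenge) and WT PBS (wild-type mice challenged with saline buffer). All mice were females of 6-12 weeks, and each library pooled lung cells of 3 mice. WT PBS is titled as challenged with ovalbumin but labelled PBS as its treatment, which is followed here. The labels name no strain background, knockout allele or challenge schedule. With 1 library per group no test across replicates exists, and genotype or treatment cannot be told apart from library.

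CD28 and ICOS bind ligands on antigen-presenting cells and add to the T cell receptor signal. OX40 (Tnfrsf4), CD137 (Tnfrsf9) and GITR (Tnfrsf18) are TNF receptor family members that appear on activated and regulatory T cells and sustain survival and effector function. CTLA-4 competes with CD28 for CD80 and CD86, PD-1 (Pdcd1) recruits phosphatases when it binds PD-L1 (Cd274) or PD-L2 (Pdcd1lg2), and LAG-3 binds MHC class II, so these receptors restrain the response. In the allergic lung, OX40 and ICOS are known for their support of T helper 2 cells, CTLA-4 for its high level on regulatory T cells, and PD-L2 for its induction on macrophages and dendritic cells by interleukin 4 and interleukin 13.

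Several of the genes are neighbours in the genome (GRCm38.p6, the assembly also called mm10). Cd28 lies on chromosome 1 at 60746388 to 60773359, Ctla4 at 60909025 to 60915832 and Icos at 60960773 to 61000322. Gaps of 136 kb and 44.9 kb separate them, with 0 protein-coding genes in either. Pdcd1 lies elsewhere on chromosome 1, at 94038305 to 94052553. On chromosome 4, Tnfrsf4 (156013595 to 156016613) and Tnfrsf18 (156026322 to 156028894) are 9.71 kb apart, and Tnfrsf9 lies at 150920155 to 150946104. On chromosome 19, Cd274 (29362107 to 29388095) and Pdcd1lg2 (29410919 to 29472927) are 22.8 kb apart, again with 0 protein-coding genes between. Lag3 lies on chromosome 6 at 124904359 to 124912434.

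The libraries held 17339386 UMIs (unique molecules) in 4666 barcodes of DJ-1 KO OVA, 24438516 in 6406 barcodes of WT OVA and 26548669 in 4556 barcodes of WT PBS. DJ-1 KO OVA and WT PBS shared 372 barcodes, against 5 shared by DJ-1 KO OVA and WT OVA and 6 by WT OVA and WT PBS. The cell with fewer UMIs of each of the 372 was left out, 66 from DJ-1 KO OVA and 306 from WT PBS. After filtering, 4372 cells from DJ-1 KO OVA, 5930 from WT OVA and 3828 from WT PBS remained, with medians of 1636.5, 2060.5 and 4069 UMIs. Park7 stood at 20.7 CPM (UMIs of the gene in each 1000000 UMIs) in DJ-1 KO OVA, 100.3 in WT OVA and 135.5 in WT PBS. It was therefore lower in, but not absent from, the library labelled DJ-1 KO OVA, and the exons deleted in the mutant are not given in the labels.

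Levels of a cell class are in CPM as well, from the UMIs of a gene summed over its cells. The counts are 3′ tags, 1 per captured transcript, so no scaling by gene length applies. Brackets hold 95% intervals, exact Poisson for a level, exact conditional binomial for a ratio of levels and Clopper-Pearson for a share of cells. They cover counting error only, not the spread between mice. A gene was called higher or lower when its ratio passed 1.5-fold with at least 20 UMIs over both libraries.

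T cell-like cells numbered 1197 in DJ-1 KO OVA, 1536 in WT OVA and 945 in WT PBS, with medians of 1644, 1971.5 and 4643 UMIs. Their Cd3d, Cd3e and Cd3g levels summed to 1039 CPM in DJ-1 KO OVA, 1227 CPM in WT OVA and 1584 CPM in WT PBS, and the 8 T cell markers measured to 3090, 2849 and 3006 CPM in the same order. A class with Rag1 and Dntt, thymocyte genes, held 762 cells from DJ-1 KO OVA, 9 from WT OVA and 29 from WT PBS and was kept outside it. Myeloid-like cells (alveolar and interstitial macrophage-, dendritic cell-, monocyte- and neutrophil-like) numbered 664, 1163 and 887, and alveolar type 2-like cells 289, 768 and 302, again for DJ-1 KO OVA, WT OVA and WT PBS. None of the 10 genes was used to form the clusters.

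**Figure D1:**
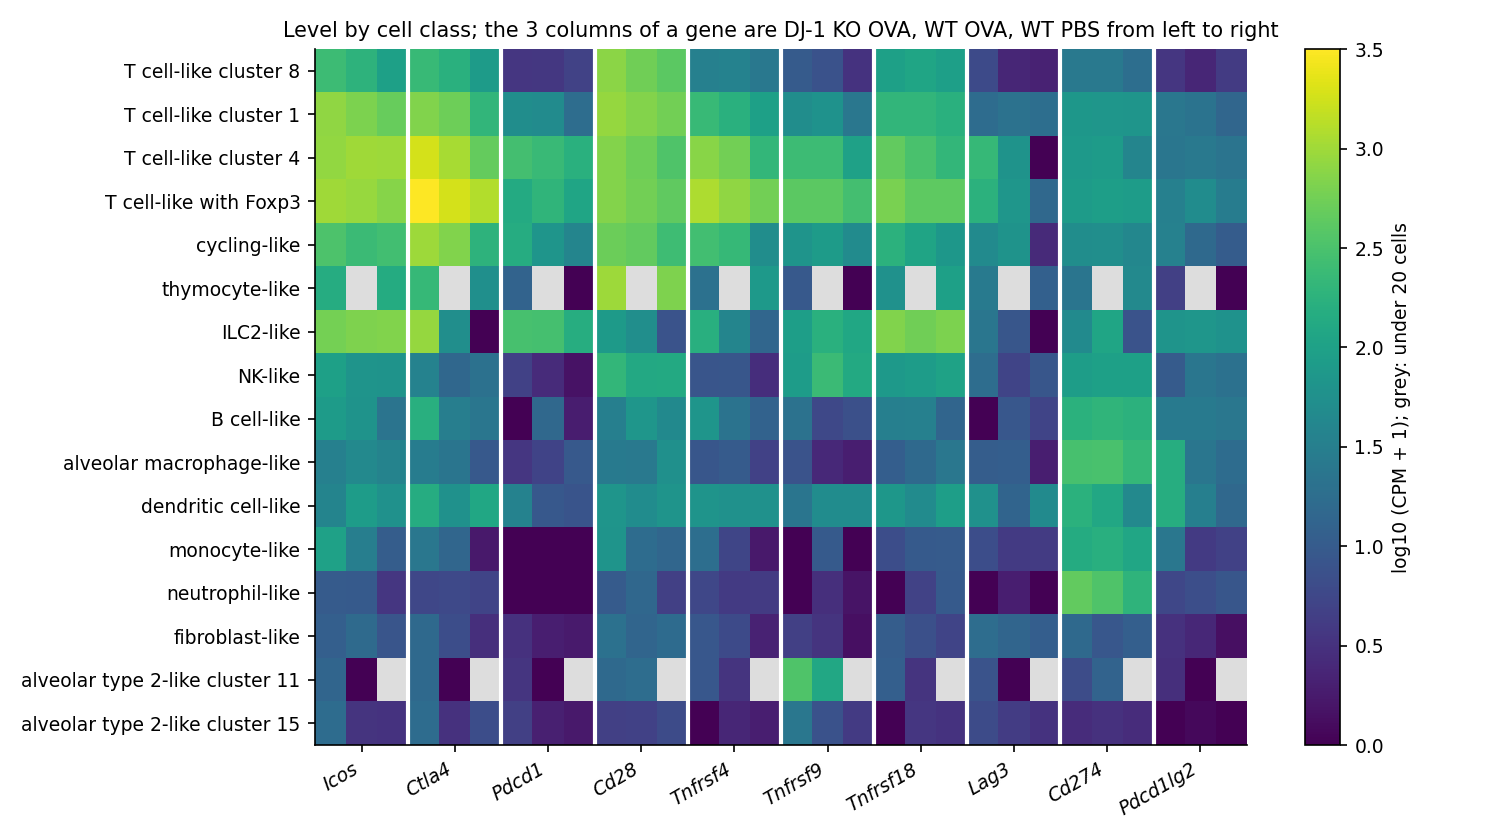
Level of each gene by cell class as log10 (CPM + 1), with 3 columns per gene for DJ-1 KO OVA, WT OVA and WT PBS from left to right and grey for classes under 20 cells. Receptor genes are bright in the T cell-like rows and Icos, Pdcd1 and Tnfrsf18 also in the ILC2-like row, Cd274 is brightest in the neutrophil- and alveolar macrophage-like rows, Pdcd1lg2 in the alveolar macrophage- and dendritic cell-like rows of DJ-1 KO OVA, and Tnfrsf9 is also bright in alveolar type 2-like cluster 11.

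Summed over T cell-like cells, every one of the 10 genes stood highest in DJ-1 KO OVA and lowest in WT PBS. The libraries drew on different T cell-like sub-clusters (T0 to T11, formed after seeing the data), however, with naive-like T11 holding 0 cells from DJ-1 KO OVA, 43 from WT OVA and 256 from WT PBS, and naive-like T2 holding 184, 277 and 22. The order was not general within sub-clusters, since of the 7 with at least 50 cells in each library it held in 6 for Ctla4, 5 for Cd28, 4 for Tnfrsf4, 3 each for Tnfrsf9, Pdcd1 and Lag3, 2 for Tnfrsf18, 1 for Icos and 0 for either ligand gene. In type 17 gamma delta-like T7, for example, Tnfrsf4 ran the other way, at 14.9 CPM in DJ-1 KO OVA, 50.5 CPM in WT OVA and 78.9 CPM in WT PBS, from 2, 13 and 33 UMIs. The part of these makeup differences in the class-wide ratios was not tested beyond weighting clusters alike. Between the ovalbumin-challenged libraries 2 of 10 genes, the inhibitory receptors Ctla4 and Lag3, passed 1.5-fold, and between WT OVA and WT PBS 6 of 10 did (Icos, Ctla4, Pdcd1, Tnfrsf4, Tnfrsf9 and Lag3), all of them higher. Over all genes with at least 20 UMIs, 16.9% passed 1.5-fold either way in DJ-1 KO OVA over WT OVA (10.6% higher, 6.33% lower) and 19.7% in WT OVA over WT PBS (13.9% higher, 5.76% lower). The median log2 ratio of the 10 genes was 0.37 in DJ-1 KO OVA over WT OVA, beside 0.14 over all genes, and 0.89 in WT OVA over WT PBS, beside 0.12. Scaling by the median of ratios moved every ratio of the class by -0.15 and -0.13 on the log2 scale in these comparisons.

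**Figure D2:**
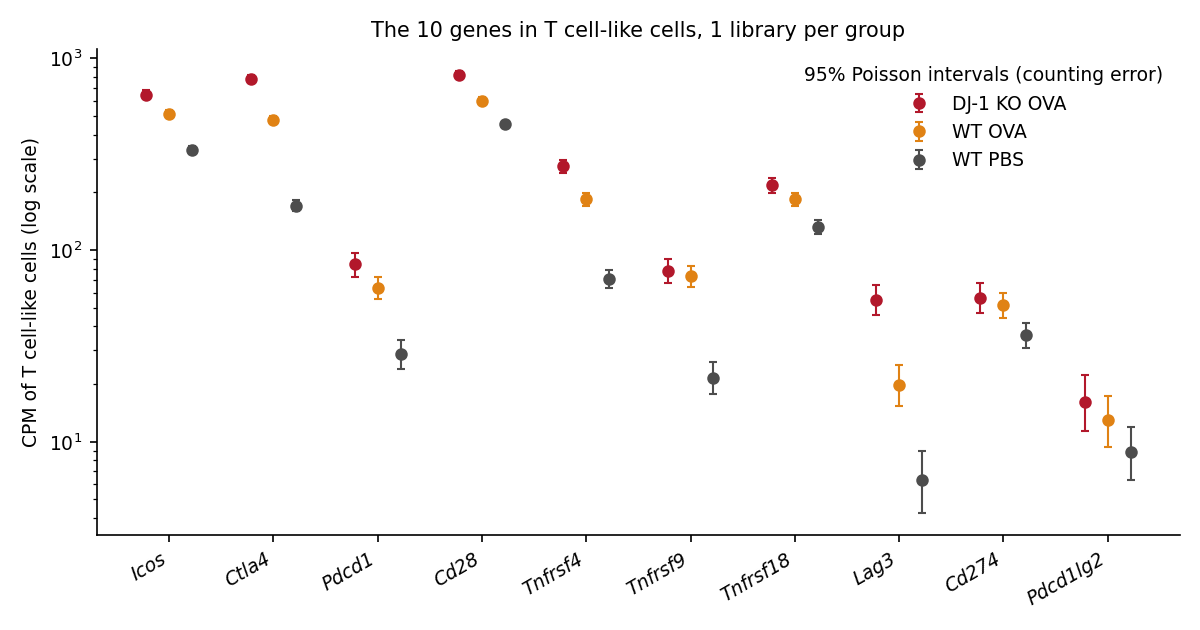
CPM of the 10 genes in T cell-like cells on a log scale, 1 point per library, with 95% Poisson intervals. Summed over the class, every gene is highest in DJ-1 KO OVA and lowest in WT PBS; for Lag3 the intervals of the 3 libraries lie apart, and for Pdcd1lg2 they overlap.

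Cd28, the constitutive costimulatory receptor of T cells, had the highest level of the 10 in each library. It had 1866 UMIs, or 817 CPM [781, 855], in DJ-1 KO OVA, 2040 UMIs, or 601 CPM [575, 627], in WT OVA, and 2161 UMIs, or 453 CPM [435, 473], in WT PBS. The levels did not overlap within counting error, but the ratios of 1.36 [1.28, 1.45] in DJ-1 KO OVA over WT OVA and 1.32 [1.25, 1.41] in WT OVA over WT PBS stayed under 1.5. In cluster 1 Cd28 was at 894 CPM in DJ-1 KO OVA, 707 CPM in WT OVA and 570 CPM in WT PBS, and in cluster 4 at 713, 525 and 339 CPM. Over the sub-clusters of DJ-1 KO OVA it ran between 358 CPM (T7) and 1191 CPM (the CD4-like T3).

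Icos, the inducible relative of Cd28, stood at 646 CPM in DJ-1 KO OVA (1475 UMIs), 511 CPM in WT OVA (1735 UMIs) and 331 CPM in WT PBS (1579 UMIs). DJ-1 KO OVA was 1.26 [1.18, 1.36] times WT OVA, and WT OVA was 1.54 [1.44, 1.65] times WT PBS. The call in WT OVA over WT PBS ended under 6 alternatives, at 1.46 with per-cell marker scores, 1.44 without ribosomal protein and mitochondrial genes, 1.42 without the regulatory T-like sub-cluster, 1.41 with median-of-ratios scaling, 1.19 with clusters weighted alike and 1.14 with separate clustering of the libraries. The ratio of WT OVA over WT PBS was 1.92 in the naive-like cluster 8, led by Lef1, Dapl1 and Ccr7, with 248 CPM in DJ-1 KO OVA, 184 CPM in WT OVA and 95.5 CPM in WT PBS. In cluster 4, led by Cd163l1, Cxcr6 and Il17a and also holding the Foxp3 cells, Icos was at 865 CPM in DJ-1 KO OVA, 996 CPM in WT OVA and 961 CPM in WT PBS, with ratios of 0.868 [0.765, 0.984] and 1.04 [0.925, 1.16].

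Tnfrsf4, which encodes OX40, reached 274 CPM in DJ-1 KO OVA (626 UMIs), 184 CPM in WT OVA (624 UMIs) and 70.9 CPM in WT PBS (338 UMIs). Its ratio of 1.49 [1.33, 1.67] in DJ-1 KO OVA over WT OVA lay just under the call, and that in WT OVA over WT PBS was 2.59 [2.27, 2.97]. Tnfrsf9, which encodes CD137, was at 78.0 CPM in DJ-1 KO OVA, 73.0 CPM in WT OVA and 21.6 CPM in WT PBS, from 178, 248 and 103 UMIs. The ovalbumin-challenged libraries overlapped (ratio 1.07 [0.875, 1.30]), and WT OVA over WT PBS, at 3.38 [2.67, 4.29], had the highest ratio of the 10 genes in that comparison. Tnfrsf18, which encodes GITR, differed less, with 218 CPM in DJ-1 KO OVA, 184 CPM in WT OVA and 132 CPM in WT PBS and ratios of 1.18 [1.05, 1.33] and 1.40 [1.25, 1.56].

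Ctla4 was the inhibitory receptor with the most UMIs, 1781 in DJ-1 KO OVA (780 CPM [744, 817]), 1621 in WT OVA (477 CPM [454, 501]) and 812 in WT PBS (170 CPM [159, 183]). DJ-1 KO OVA stood 1.63 [1.53, 1.75] times as high as WT OVA, and WT OVA 2.80 [2.57, 3.05] times as high as WT PBS. With every cell thinned to 1000 UMIs, 28.0% of T cell-like cells carried Ctla4 in DJ-1 KO OVA, 21.2% in WT OVA and 10.3% in WT PBS, as means over 20 draws (33.6, 30.3 and 24.7% before thinning). The thinned shares were 0.934, 0.281 and 0.183% in fibroblast-like cells and 4.02, 0.783 and 0.565% in B cell-like cells, which should lack the gene. The call between DJ-1 KO OVA and WT OVA ended under 4 alternatives, at 1.47 with median-of-ratios scaling, 1.47 without ribosomal protein and mitochondrial genes, 1.41 with per-cell marker scores and 1.32 with the thymocyte-like cells within the class.

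Pdcd1, which encodes PD-1, was at 84.1 CPM in DJ-1 KO OVA (192 UMIs), 63.6 CPM in WT OVA (216 UMIs) and 28.5 CPM in WT PBS (136 UMIs). Its ratios were 1.32 [1.08, 1.61] in DJ-1 KO OVA over WT OVA and 2.23 [1.79, 2.78] in WT OVA over WT PBS. Of its 192 UMIs in DJ-1 KO OVA, 138 lay in cluster 4, 52 in cluster 1 and 2 in the naive-like cluster 8.

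Lag3 was the scarcest receptor, with 126 UMIs in DJ-1 KO OVA (55.2 CPM [46.0, 65.7]), 67 in WT OVA (19.7 CPM [15.3, 25.1]) and 30 in WT PBS (6.30 CPM [4.25, 8.99]). The ratios were 2.80 [2.06, 3.82] in DJ-1 KO OVA over WT OVA and 3.13 [2.01, 4.99] in WT OVA over WT PBS. Fibroblast-like cells, which should lack it, held 16.997 CPM in DJ-1 KO OVA, 12.7 CPM in WT OVA and 10.0 CPM in WT PBS, and B cell-like cells 0, 8.05 and 4.21 CPM. The WT PBS level of T cell-like cells was therefore not above that of fibroblast-like cells, and the WT OVA interval overlapped theirs [8.40, 18.5]. The WT PBS UMIs were uneven within the class, with 27 in cluster 1 (17.4 CPM), 3 in cluster 8 (1.15 CPM) and 0 in cluster 4. Of the 20 T cell-like cells of WT PBS with Lag3, 18 held a Cd3 UMI. Whether the WT PBS level is background was not tested. The class-wide shares after thinning (2.40, 1.14 and 0.418%) also lay at or below those of fibroblast-like cells (2.55, 1.29 and 1.03%), whose medians were 4227.5, 4481 and 6883 UMIs. The class-wide CPM of DJ-1 KO OVA, in contrast, lay above that of fibroblast-like cells. CD8-like T0 held Lag3 at 24.2 CPM in DJ-1 KO OVA (4 UMIs), 45.9 CPM in WT OVA (13 UMIs) and 18.7 CPM in WT PBS (6 UMIs). Cluster 4 lay above the fibroblast-like level in DJ-1 KO OVA (105 UMIs, 219 CPM) and WT OVA (40 UMIs, 62.4 CPM), and held 0 UMIs in WT PBS. There DJ-1 KO OVA over WT OVA was 3.51 [2.42, 5.19], and WT OVA was at least 12.6-fold higher than WT PBS, taking 3 UMIs per library as the floor. Cluster 4 mixes Il17a-led and Foxp3 cells, and the regulatory T-like sub-cluster had 120 cells from WT OVA but 13 from WT PBS. The part of such makeup in these folds was not tested. Just 48 T cell-like cells in DJ-1 KO OVA, 40 in WT OVA and 20 in WT PBS carried Lag3, and the top cell held 8.73, 8.96 and 13.3% of the UMIs.

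The ligand genes were low in T cell-like cells. Cd274 stood at 56.5 CPM in DJ-1 KO OVA, 51.5 CPM in WT OVA and 35.9 CPM in WT PBS, and Pdcd1lg2 at 16.2, 12.96 and 8.81 CPM. In DJ-1 KO OVA over WT OVA both intervals included 1, at 1.10 [0.866, 1.38] for Cd274 and 1.25 [0.785, 1.98] for Pdcd1lg2.

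Other properties of the T cell-like cells moved with the library. Ribosomal protein genes took 21.2% of the class's UMIs in DJ-1 KO OVA, 28.4% in WT OVA and 32.1% in WT PBS, and mitochondrial genes 3.20, 3.39 and 4.202%. The 11 alveolar macrophage markers summed to 419 CPM in DJ-1 KO OVA, with 8 above 0 and Ear1, Marco and Siglecf at 0. They summed to 91.0 CPM in WT OVA (8 above 0, with Marco, Siglecf and Fabp1 at 0) and to 10.3 CPM in WT PBS (10 above 0, with Marco at 0). A UMI of Chil3, the macrophage gene behind most of this sum, was found in 49.7% of T cell-like cells in DJ-1 KO OVA, 14.8% in WT OVA and 2.96% in WT PBS. The part of these shifts in the levels above was not tested. When each library was clustered on its own, Ctla4 in DJ-1 KO OVA over WT OVA came to 4.67 and Lag3 to 11.2, and Pdcd1, Tnfrsf9, Tnfrsf4, Icos and Lag3 in WT OVA over WT PBS came to 0.873, 1.01, 1.11, 1.14 and 1.28.

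Foxp3, the transcription factor of regulatory T cells, was detected in 81 T cell-like cells in DJ-1 KO OVA, 105 in WT OVA and 31 in WT PBS (6.77, 6.84 and 3.28%). This gate and those on Cd4 and Cd8 were chosen with results of these data known. In the Foxp3 cells Ctla4 reached 3375 CPM in DJ-1 KO OVA, 1881 CPM in WT OVA and 1235 CPM in WT PBS, with a ratio of 1.79 [1.60, 2.01] in DJ-1 KO OVA over WT OVA. Lag3 was at 174 CPM in DJ-1 KO OVA (32 UMIs), 68.4 CPM in WT OVA (22 UMIs) and 14.3 CPM in WT PBS (3 UMIs). Its ratio in DJ-1 KO OVA over WT OVA was 2.55 [1.44, 4.61], an interval that holds that of Ctla4. Tnfrsf9 had 420 CPM in each of the ovalbumin-challenged libraries, a ratio of 1.00 whose interval [0.746, 1.33] holds no difference as large as 1.5-fold. Tnfrsf4 stood at 1189 CPM in DJ-1 KO OVA, 837 CPM in WT OVA and 561 CPM in WT PBS, and Tnfrsf18 at 627, 432 and 428 CPM. Pdcd1 ran the other way, at 136 CPM in DJ-1 KO OVA against 193 CPM in WT OVA, within an interval that included no difference (0.707 [0.426, 1.14]). WT OVA and WT PBS were not compared, since WT PBS had fewer than 50 such cells.

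The differences were also found in T cell-like cells without a Foxp3 UMI. This gate still holds some regulatory T-like cells. In the regulatory T-like sub-cluster Foxp3 was detected in 61 of 86 cells of DJ-1 KO OVA, 80 of 120 of WT OVA and 11 of 13 of WT PBS. Among cells without a Foxp3 UMI, Ctla4 was at 553 CPM in DJ-1 KO OVA, 331 CPM in WT OVA and 121 CPM in WT PBS, with ratios of 1.67 [1.54, 1.82] and 2.73 [2.46, 3.03]. Lag3 was at 44.8 CPM in DJ-1 KO OVA, 14.6 CPM in WT OVA and 5.93 CPM in WT PBS, with ratios of 3.06 [2.12, 4.47] and 2.47 [1.499, 4.14]. The WT OVA and WT PBS levels of Lag3 lay near or below the 12.7 and 10.0 CPM of fibroblast-like cells. The ratio of WT OVA over WT PBS is therefore not read as a difference above the level of those cells. Tnfrsf4 and Pdcd1, under the call in the whole class, passed it here in DJ-1 KO OVA over WT OVA, at 1.68 [1.46, 1.95] and 1.59 [1.27, 1.99].

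Sub-clustering of the T cell-like cells, also done after seeing the data, gave a sub-cluster led by Areg, Tnfsf11, Il1rl1 and Tnfsf8 (102 cells from DJ-1 KO OVA, 101 from WT OVA and 51 from WT PBS). It scored 2.24 on the marker list of type 2 T cells and 1.93 on that of group 2 innate lymphoid cells, and was left unnamed. Several receptor genes differed widely in it. There Pdcd1 stood at 346 CPM in DJ-1 KO OVA (108 UMIs), 116 CPM in WT OVA (32 UMIs) and 17.003 CPM in WT PBS (5 UMIs), with ratios of 2.99 [1.998, 4.58] and 6.82 [2.64, 22.4]. Lag3 reached 250 CPM in DJ-1 KO OVA (78 UMIs), against 54.4 CPM in WT OVA (15 UMIs) and 3.40 CPM in WT PBS (1 UMI), with a ratio of 4.60 [2.63, 8.62] in DJ-1 KO OVA over WT OVA. Ctla4 was 1.97 [1.68, 2.32] times and Tnfrsf4 1.77 [1.43, 2.20] times as high in DJ-1 KO OVA as in WT OVA. Icos ran against them, at 725 CPM in DJ-1 KO OVA and 1011 CPM in WT OVA and 1007 CPM in WT PBS, a ratio of 0.717 [0.599, 0.858] in DJ-1 KO OVA over WT OVA.

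In the regulatory T-like sub-cluster (86 cells from DJ-1 KO OVA, 120 from WT OVA and 13 from WT PBS), Ctla4 was at 3189.9 CPM in DJ-1 KO OVA, 2159 CPM in WT OVA and 1735 CPM in WT PBS, a ratio of 1.48 [1.32, 1.65] in DJ-1 KO OVA over WT OVA. In the type 17 gamma delta-like sub-cluster, led by Cd163l1 and Blk, Ctla4 was at 447 CPM in DJ-1 KO OVA, 167 CPM in WT OVA and 199 CPM in WT PBS, with ratios of 2.68 [1.78, 4.06] and 0.841 [0.568, 1.23]. A CD4-like sub-cluster led by Itgb1, Cxcr3 and Casp4 showed Pdcd1 lower in DJ-1 KO OVA, with 9 UMIs (17.7 CPM) against 34 in WT OVA (68.5 CPM) and 10 in WT PBS (18.6 CPM). Its ratio was 0.259 [0.109, 0.551] in DJ-1 KO OVA over WT OVA, so Pdcd1 did not move one way across the T cell subsets.

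Lag3, Pdcd1 and Tnfrsf4 were also read in Cd4 and Cd8 cells apart. In cells with Cd4 and no Cd8 UMI (249 from DJ-1 KO OVA, 329 from WT OVA and 313 from WT PBS), Lag3 was at 173 CPM in DJ-1 KO OVA, 39.3 CPM in WT OVA and 7.83 CPM in WT PBS. Its ratios were 4.41 [2.90, 6.88] and 5.01 [2.49, 10.8]. The WT PBS level, from 12 UMIs, was no higher than the 10.0 CPM of fibroblast-like cells, so the size of the second ratio is uncertain. Pdcd1 in the Cd4 cells was at 178 CPM in DJ-1 KO OVA, 90.3 CPM in WT OVA and 11.7 CPM in WT PBS, with ratios of 1.98 [1.44, 2.72] and 7.69 [4.52, 13.7]. In cells with Cd8a or Cd8b1 and no Cd4 UMI (242, 398 and 295), Lag3 had 8 UMIs in DJ-1 KO OVA, 13 in WT OVA and 12 in WT PBS, and its ratio of 1.11 [0.400, 2.90] in DJ-1 KO OVA over WT OVA included no difference. Pdcd1 in the Cd8 cells was at 18.9 CPM in DJ-1 KO OVA (10 UMIs), 30.3 CPM in WT OVA (29 UMIs) and 12.5 CPM in WT PBS (21 UMIs), with ratios of 0.624 [0.271, 1.32] and 2.43 [1.34, 4.48]. Tnfrsf4 in the Cd4 cells was at 503 CPM in DJ-1 KO OVA, 364 CPM in WT OVA and 129 CPM in WT PBS, with ratios of 1.38 [1.17, 1.64] and 2.82 [2.34, 3.40]. In the Cd8 cells Tnfrsf4 was at 71.9 CPM in DJ-1 KO OVA, 27.2 CPM in WT OVA and 19.6 CPM in WT PBS, with ratios of 2.65 [1.57, 4.54] and 1.39 [0.796, 2.39]. The differences between Cd4 and Cd8 cells were themselves not tested.

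More receptor genes were detected per T cell-like cell in the challenged libraries. With cells thinned to 1000 UMIs, averaged over 20 draws, 21.3% [19.0, 23.9] of 1091 cells of DJ-1 KO OVA held at least 3 of the 8 receptor genes, against 14.6% [12.9, 16.6] of 1487 cells of WT OVA and 6.18% [4.72, 7.94] of 922 cells of WT PBS. None of the 8 was seen in 22.3% of cells in DJ-1 KO OVA, 29.98% in WT OVA and 43.1% in WT PBS. Among cells without Foxp3 the share with at least 3 was 17.3% in DJ-1 KO OVA, 11.2% in WT OVA and 4.60% in WT PBS. Among the few Foxp3 cells it was 76.7% of 75 in DJ-1 KO OVA, 61.8% of 102 in WT OVA and 51.8% of the 31 from WT PBS. The draw itself moved the Foxp3 shares by as much as 38.7 to 61.3% in WT PBS, and their counting intervals overlapped between neighbouring libraries.

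**Figure D3:**
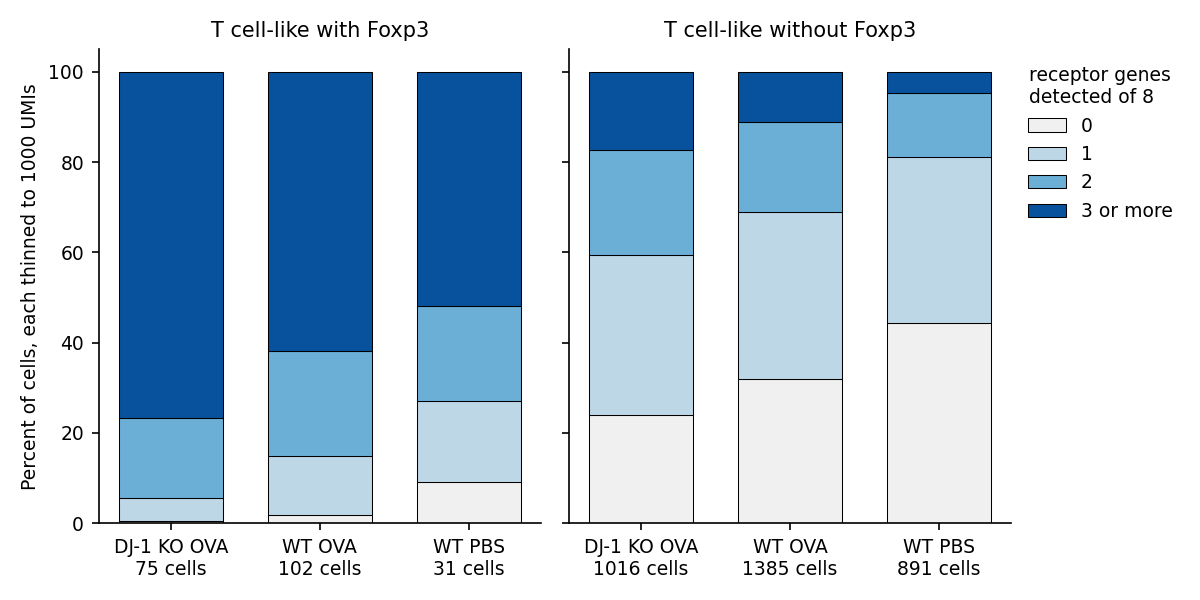
Percent of T cell-like cells with 0, 1, 2 or at least 3 of the 8 receptor genes after thinning each cell to 1000 UMIs (mean of 20 draws), for cells with Foxp3 (left) and without (right), 1 bar per library. The dark segment for at least 3 genes is largest in DJ-1 KO OVA and smallest in WT PBS in both panels.

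The wider pathway in T cell-like cells was read from gene lists chosen with earlier results of these data known. Of 16 activation genes, 8 passed 1.5-fold higher and 0 lower in DJ-1 KO OVA over WT OVA, where 10.6% of all genes were higher, and the list's median log2 ratio was 0.59, beside 0.14 over all genes. The highest ratios were those of Egr2 (5.69 CPM in DJ-1 KO OVA and 2.36 CPM in WT OVA), Irf4 (35.5 and 16.8 CPM) and Myc (33.7 and 18.0 CPM). Egr2, a T cell receptor-induced factor, was scarce in each of these libraries. Its ratio rests on few UMIs, and its first place is not read as a result. In WT OVA over WT PBS, where 13.9% of all genes were higher and 5.76% lower, 7 of 15 activation genes were higher and 0 lower. Irf4, at 16.8 CPM in WT OVA and 6.09 CPM in WT PBS, led them. Of 8 regulatory T cell genes, 3 were higher in DJ-1 KO OVA over WT OVA, Il10 (81.9 against 25.9 CPM), Il1rl1 (208 against 92.5 CPM) and Areg (215 against 100.4 CPM), while Foxp3 itself was at 82.3 against 66.8 CPM. Lrrc32 had a ratio of 0.684 [0.472, 0.979] and Ikzf2 of 0.914 [0.819, 1.02]. Areg and Il1rl1 also led the unnamed sub-cluster above. Within the regulatory T-like sub-cluster Il1rl1 was at 708 CPM in DJ-1 KO OVA and 588 CPM in WT OVA. Of 9 regulatory T cell genes 7 were higher and 1 lower in WT OVA over WT PBS, beside 13.9% and 5.76% of all genes. The regulatory T-like sub-cluster had 120 cells from WT OVA and 13 from WT PBS, and the part of this in the count was not tested. Of 9 resting T cell genes, 0 were higher and 1 lower in each comparison. Over all genes 6.33% were lower in DJ-1 KO OVA over WT OVA and 5.76% in WT OVA over WT PBS, so these counts are not read as a result.

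Of 15 other inhibitory receptors and ligands, 3 were higher and 0 lower in DJ-1 KO OVA over WT OVA, all of them scarce. Tigit was at 10.1 CPM in DJ-1 KO OVA and 4.42 CPM in WT OVA, Cd200r1 at 24.1 and 10.6 CPM, and Havcr2, which encodes TIM-3, at 8.32 and 4.42 CPM. Of 12 other costimulatory genes 2 were higher and 0 lower in that comparison, and of 18 signalling genes downstream of the receptors 3 were higher and 0 lower. Over all genes 10.6% were higher and 6.33% lower there, so the shares of these 3 lists are not read as a result. Their median log2 ratios were 0.15, -0.04 and 0.34, beside 0.14 over all genes. The signalling genes gave 0 higher and 1 lower in WT OVA over WT PBS, where 13.9% of all genes were higher and 5.76% lower.

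Beyond T cells, receptor genes also marked other lymphoid classes. ILC2-like cells (group 2 innate lymphoid cells, a source of type 2 cytokines, with 74 cells in DJ-1 KO OVA, 48 in WT OVA and 33 in WT PBS) held Tnfrsf18 at 676 CPM in DJ-1 KO OVA, 555 CPM in WT OVA and 641 CPM in WT PBS. Icos in them was at 579, 668 and 688 CPM and Pdcd1 at 304, 289 and 148 CPM, in the same order. Ctla4 stood apart, with 153 UMIs in DJ-1 KO OVA (876 CPM [743, 1030]), 7 in WT OVA (53.2 CPM [21.4, 110]) and 0 in WT PBS. It was carried by 28 of 74 cells of DJ-1 KO OVA and 4 of 48 of WT OVA. Leaving out cells with a Cd3 UMI gave 865 CPM in DJ-1 KO OVA (120 UMIs), 61.6 CPM in WT OVA (7 UMIs) and 0 in WT PBS. The class had too few cells for a call. The Cd3 filter, used again below, does not remove every T cell. Among T cell-like cells without Lag3, 77.2% held a Cd3 UMI in DJ-1 KO OVA, 87.2% in WT OVA and 97.4% in WT PBS. It is therefore weakest in DJ-1 KO OVA.

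NK-like cells carried Tnfrsf9, at 85.1 CPM in DJ-1 KO OVA (46 UMIs), 242 CPM in WT OVA (286 UMIs) and 134 CPM in WT PBS (283 UMIs). Unlike in T cell-like cells, DJ-1 KO OVA had the lowest level, at 0.351 [0.252, 0.481] times WT OVA, and WT OVA was 1.81 [1.53, 2.14] times WT PBS. The difference between the classes was not tested. Cycling-like cells held Ctla4 at 970 CPM in DJ-1 KO OVA, 696 CPM in WT OVA and 182 CPM in WT PBS. The thymocyte-like cells of DJ-1 KO OVA held Cd28 at 956 CPM (793 UMIs), with Ctla4 at 219 CPM (182 UMIs) and Icos at 147 CPM (122 UMIs).

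In myeloid-like cells, Cd274 was alike in DJ-1 KO OVA and WT OVA and lower in WT PBS, while Pdcd1lg2 was many times higher in DJ-1 KO OVA than in either other library. Cd274 had 908 UMIs in DJ-1 KO OVA (275 CPM [257, 294]), 1145 in WT OVA (262 CPM [247, 277]) and 756 in WT PBS (157 CPM [146, 168]). Its ratio was 1.05 [0.962, 1.15] in DJ-1 KO OVA over WT OVA, an interval that holds no difference above 1.15-fold, and 1.67 [1.52, 1.83] in WT OVA over WT PBS. Pdcd1lg2 had 435 UMIs in DJ-1 KO OVA (132 CPM [120, 145]), 69 in WT OVA (15.8 CPM [12.3, 19.96]) and 41 in WT PBS (8.51 CPM [6.10, 11.5]). DJ-1 KO OVA stood 8.35 [6.47, 10.9] times as high as WT OVA, and WT OVA 1.85 [1.24, 2.80] times as high as WT PBS.

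Alveolar macrophage-like cells (261 from DJ-1 KO OVA, 188 from WT OVA and 59 from WT PBS) supplied 64.6% of all Pdcd1lg2 UMIs in the DJ-1 KO OVA library, 21.1% in WT OVA and 8.63% in WT PBS. Their Pdcd1lg2 level was 149 CPM [134, 165] in DJ-1 KO OVA, 22.6 CPM [16.4, 30.3] in WT OVA and 16.1 CPM [9.40, 25.8] in WT PBS. The ratios were 6.60 [4.81, 9.24] and 1.40 [0.783, 2.61], and WT OVA and WT PBS overlapped. It was the 1 of 8 members with at least 20 UMIs that passed 1.5-fold in DJ-1 KO OVA over WT OVA in these cells, where 30.1% of all genes did (12.3% higher, 17.8% lower). The gene was carried by 132 of 261 cells in DJ-1 KO OVA, 32 of 188 such cells in WT OVA and 12 of the 59 from WT PBS, and thinning to 1000 UMIs gave 14.3, 2.93 and 1.67% of cells. In cells without a Cd3 UMI the level was 156 CPM in DJ-1 KO OVA, 26.7 CPM in WT OVA and 14.2 CPM in WT PBS. Fibroblast-like cells held 2.12, 1.42 and 0.385 CPM. The share of alveolar macrophage-like cells among myeloid-like cells also differed between the libraries, and the part of this in the class-wide ratio was not tested beyond weighting clusters alike, which gave 6.23.

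Dendritic cell-like cells showed the same order of Pdcd1lg2, with 62 UMIs in DJ-1 KO OVA (151 CPM [116, 194]), 15 in WT OVA (30.9 CPM [17.3, 51.0]) and 4 in WT PBS (14.3 CPM [3.89, 36.6]), a ratio of 4.90 in DJ-1 KO OVA over WT OVA. In interstitial macrophage-like cells, under 50 in each library, it was at 116 CPM in DJ-1 KO OVA (16 UMIs), 8.39 CPM in WT OVA (2 UMIs) and 0 in WT PBS. Monocyte-like cells (23.2, 2.92 and 3.76 CPM) and neutrophil-like cells (4.61, 5.91 and 7.78 CPM) held it at low levels from at most 15 UMIs a library.

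Both ligand genes were also found outside myeloid-like cells. Pdcd1lg2 was at 26.7 CPM in DJ-1 KO OVA, 26.8 CPM in WT OVA and 23.4 CPM in WT PBS in B cell-like cells (12, 40 and 50 UMIs), at 9.25, 22.9 and 18.9 CPM in NK-like cells, and at 63.0, 68.4 and 60.7 CPM in ILC2-like cells (11, 9 and 9 UMIs). In WT PBS the intervals of these levels overlapped or lay above that of alveolar macrophage-like cells.

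Cd274 in neutrophil-like cells stood at 451 CPM [367, 550] in DJ-1 KO OVA, 340 CPM [305, 378] in WT OVA and 187 CPM [168, 207] in WT PBS, with ratios of 1.33 [1.05, 1.67] and 1.82 [1.56, 2.11]. There 0 of the 1 member with at least 20 UMIs passed in DJ-1 KO OVA over WT OVA, where 38.3% of all genes did (17.6% higher, 20.7% lower), and 3 of 4 in WT OVA over WT PBS (Cd28 and Cd274 higher, Tnfrsf18 lower), where 24.9% did (15.8% higher, 9.08% lower). Alveolar macrophage-like cells held Cd274 at 298 CPM in DJ-1 KO OVA, 316 CPM in WT OVA and 211 CPM in WT PBS, with ratios of 0.944 [0.846, 1.05] and 1.4995 [1.28, 1.76]. In them 5 of 8 members passed in WT OVA over WT PBS (Ctla4, Tnfrsf4 and Lag3 higher, Cd28 and Tnfrsf18 lower), where 26.6% of all genes did (10.1% higher, 16.5% lower). Most WT OVA UMIs of Ctla4, Tnfrsf4 and Cd28 lay in cells with a Cd3 UMI. Cells without one kept 2 of 43, 2 of 18 and 1 of 48 of them, 13 of 29 for Tnfrsf18 and 18 of 20 for Lag3. These 5 calls are therefore not read as differences of macrophages. Dendritic cell-like cells held Cd274 at 169, 126 and 42.8 CPM and monocyte-like cells at 139, 162 and 117 CPM, in DJ-1 KO OVA, WT OVA and WT PBS. B cell-like cells held 169 CPM in DJ-1 KO OVA, 197 CPM in WT OVA and 178 CPM in WT PBS, levels whose intervals overlapped.

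**Figure D4:**
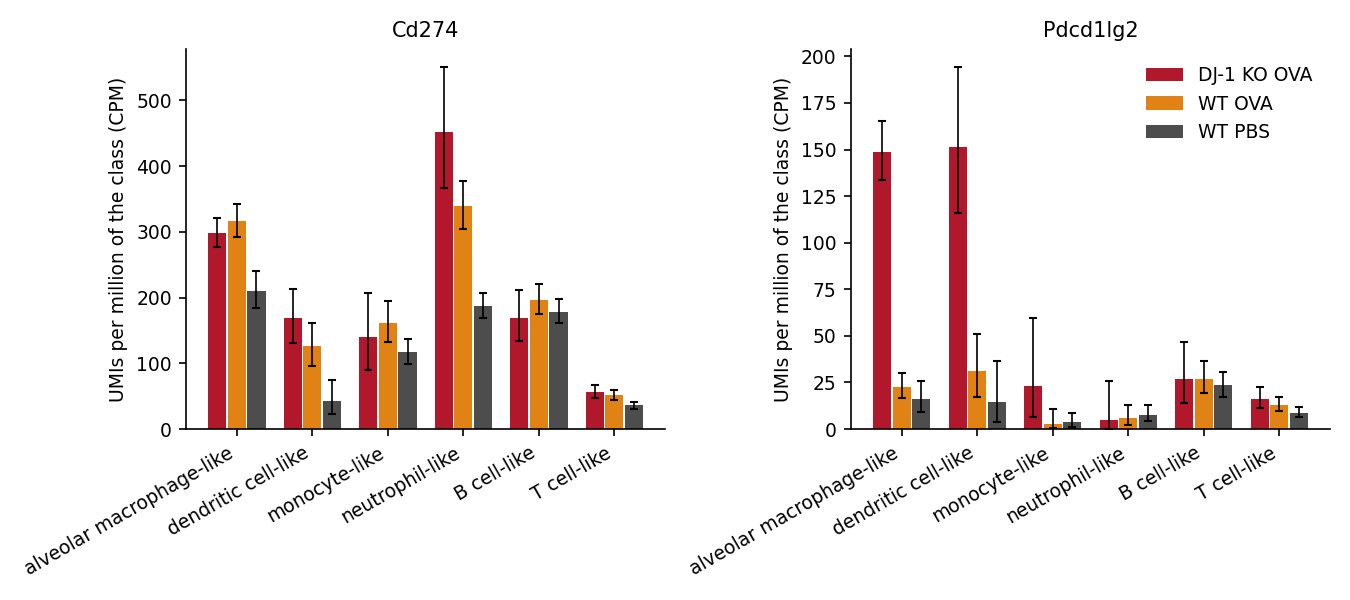
CPM of Cd274 (left) and Pdcd1lg2 (right) in 6 cell classes, 1 bar per library with 95% Poisson intervals. Cd274 bars of DJ-1 KO OVA and WT OVA are alike in alveolar macrophage-like cells (298 and 316 CPM), while Pdcd1lg2 stands at 149 CPM in DJ-1 KO OVA and 22.6 CPM in WT OVA there.

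In all, 4 of the 10 genes passed 1.5-fold in myeloid-like cells of DJ-1 KO OVA over WT OVA (Ctla4, Pdcd1, Lag3 and Pdcd1lg2), where 32.6% of all genes did, and 8 of 10 in WT OVA over WT PBS (the same 4 with Icos, Tnfrsf4, Tnfrsf9 and Cd274), where 25.8% did, all higher. The background shares were 16.5% higher and 16.1% lower in DJ-1 KO OVA over WT OVA, and 18.5% higher and 7.35% lower in WT OVA over WT PBS. The 6 receptors among these genes were scarce. Without cells holding a Cd3 UMI, Icos was at 6.25 CPM in WT OVA and 2.66 CPM in WT PBS, against 15.1 and 7.32 CPM in fibroblast-like cells. Tnfrsf4 was at 4.35 CPM in WT OVA and 1.45 CPM in WT PBS in them, against 5.19 and 1.16 CPM in fibroblast-like cells. Tnfrsf9 was at 5.16 CPM in WT OVA (19 UMIs) and 0.242 CPM in WT PBS (1 UMI), against 2.36 and 0.385 CPM in fibroblast-like cells, with overlapping intervals in each library. In cells without a Cd3 UMI Ctla4 was at 14.4 CPM in DJ-1 KO OVA, 2.99 CPM in WT OVA and 0.726 CPM in WT PBS, against 45.4, 20.8 and 10.8 CPM over all myeloid-like cells. Pdcd1 was at 0.776, 0.272 and 0 CPM in them, against 6.66, 3.43 and 2.28 CPM over all. Lag3 summed over the class stood at 17.5, 7.61 and 4.11 CPM in them, no higher beyond counting error than the 16.997, 12.7 and 10.0 CPM of fibroblast-like cells. Dendritic cell-like cells stood apart, with Lag3 at 58.6 CPM [37.6, 87.2] in DJ-1 KO OVA (24 UMIs), 12.4 CPM [4.54, 26.9] in WT OVA (6 UMIs) and 46.4 CPM [24.7, 79.4] in WT PBS (13 UMIs from 28 cells). Their ratio was 4.74 [1.89, 14.2] in DJ-1 KO OVA over WT OVA, and 5.98 [2.002, 24.1] in those without a Cd3 UMI.

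Genes linked to the ligands' known inducers were read in the same myeloid-like cells. Of 11 interferon- and STAT6-linked genes, 6 were higher and 3 lower in DJ-1 KO OVA over WT OVA, where 16.5% of all genes were higher and 16.1% lower. Arg1 (411 CPM in DJ-1 KO OVA and 10.1 CPM in WT OVA), Irf4 (138 and 28.3 CPM) and Retnla (1016 and 281 CPM), genes of the interleukin 4 response, had the highest ratios. Irf1 (111 and 230 CPM), an interferon-induced factor, Stat6 (68.2 and 110 CPM) and Ifngr1 (229 and 346 CPM) had the lowest. In WT OVA over WT PBS 6 were higher and 0 lower, where 18.5% of all genes were higher and 7.35% lower. The makeup of the class differed, with 261, 188 and 59 alveolar macrophage-like and 208, 636 and 591 neutrophil-like cells in DJ-1 KO OVA, WT OVA and WT PBS. Of 3353 Retnla UMIs in DJ-1 KO OVA, 2032 lay in 38 interstitial macrophage-like cells. T cell-like cells of DJ-1 KO OVA also held Retnla, at 300 CPM. The part of makeup and of such background in these ratios was not tested. Of 6 ligands and counter-receptors, 0 were higher and 2 lower in DJ-1 KO OVA over WT OVA, namely Icosl, the ligand of ICOS, at 21.5 CPM in DJ-1 KO OVA and 52.6 CPM in WT OVA, and Cd80, at 8.78 and 13.3 CPM. In WT OVA over WT PBS 3 were higher (H2-Ab1, Tnfsf9 and Icosl) and Cd86 was lower, at 24.5 CPM in WT OVA and 45.0 CPM in WT PBS.

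In alveolar type 2-like cells, the surfactant-producing epithelium, Tnfrsf9 was read above background, and it was far higher in DJ-1 KO OVA. It had 703 UMIs in DJ-1 KO OVA (272 CPM [252, 293]), 85 in WT OVA (15.7 CPM [12.5, 19.4]) and 12 in WT PBS (2.96 CPM [1.53, 5.17]). The ratios were 17.4 [13.9, 22.0] in DJ-1 KO OVA over WT OVA and 5.29 [2.88, 10.6] in WT OVA over WT PBS. The class supplied 65.2% of all Tnfrsf9 UMIs of the DJ-1 KO OVA library and 11.5% of those of WT OVA. Fibroblast-like cells held 3.54 CPM in DJ-1 KO OVA, 2.36 CPM in WT OVA and 0.385 CPM in WT PBS, so the WT PBS level of alveolar type 2-like cells, with its interval, was not far above background.

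The carriers were many cells and not a few. Tnfrsf9 was detected in 171 of 289 alveolar type 2-like cells of DJ-1 KO OVA, 47 of 768 of WT OVA and 10 of 302 of WT PBS, and the top cell held 1.99, 5.88 and 25.0% of the UMIs. After thinning to 1000 UMIs the shares were 21.1% in DJ-1 KO OVA, 1.04% in WT OVA and 0.305% in WT PBS, against 0.104, 0.115 and 0.0500% in fibroblast-like cells. Of the carriers, 15 of 171 in DJ-1 KO OVA and 4 of 47 in WT OVA also held a Cd3 UMI. In cells without one, Tnfrsf9 was at 265 CPM in DJ-1 KO OVA, 14.7 CPM in WT OVA and 3.0995 CPM in WT PBS, a ratio of 18.0 [14.2, 23.2] in DJ-1 KO OVA over WT OVA.

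Most of the class lay in cluster 11 in DJ-1 KO OVA but in cluster 15 in WT OVA and WT PBS. Cluster 11, led by Slc26a4, Chia1 and Il33, had 206 cells from DJ-1 KO OVA, 41 from WT OVA and 1 from WT PBS, and cluster 15, led by Sftpc and Sftpb, had 83, 727 and 301. In cluster 11 Tnfrsf9 was at 341 CPM in DJ-1 KO OVA (690 UMIs) and 124 CPM in WT OVA (52 UMIs), with 78.6 and 51.2% of cells carrying it. In cluster 15 it was at 23.1 CPM in DJ-1 KO OVA (13 UMIs), 6.59 CPM in WT OVA (33 UMIs) and 2.99 CPM in WT PBS (12 UMIs), with ratios of 3.51 [1.70, 6.85] and 2.20 [1.11, 4.69]. Within clusters the difference between the ovalbumin-challenged libraries was thus in the same direction but smaller, and weighting the clusters alike gave 2.80 in place of 17.4. Retnla, a secreted type 2 response gene, moved with it over the class, at 38707.5 CPM in DJ-1 KO OVA, 2980.4 CPM in WT OVA and 46.7 CPM in WT PBS. Within cluster 11 Retnla was at 47706 CPM in DJ-1 KO OVA and 22896 CPM in WT OVA, and its part in the result was not tested.

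**Figure D5:**
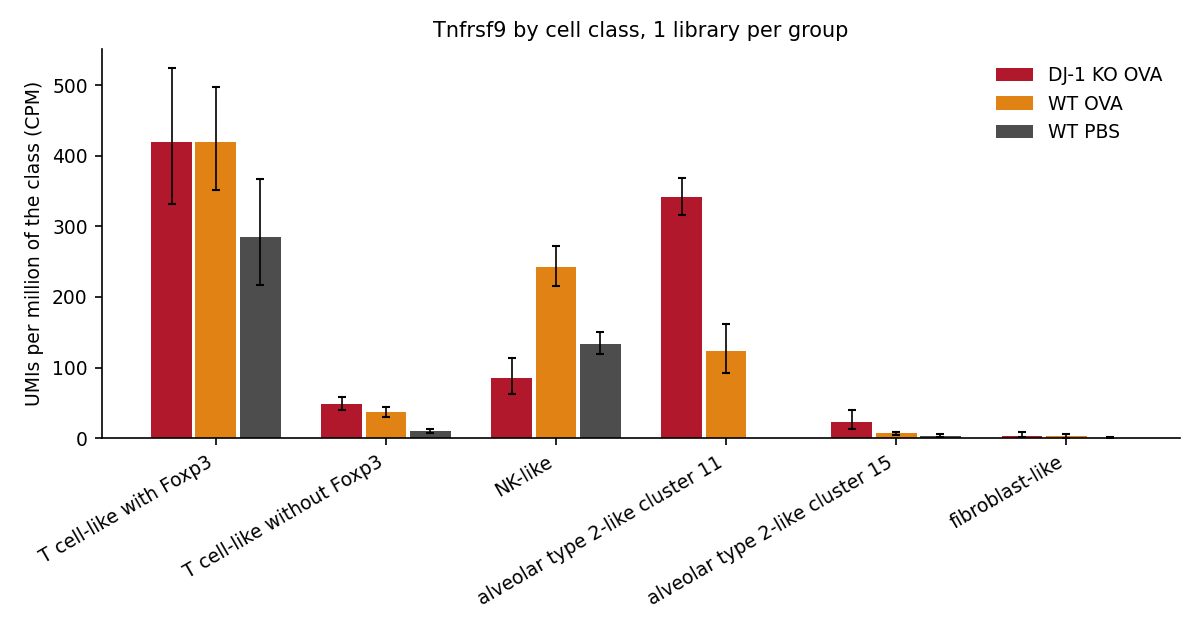
CPM of Tnfrsf9 in 6 cell classes, 1 bar per library with 95% Poisson intervals; WT PBS has 1 cell in alveolar type 2-like cluster 11 and no bar there. DJ-1 KO OVA is highest in both alveolar type 2-like clusters, equal to WT OVA in T cell-like cells with Foxp3 (420 CPM each), and lowest in NK-like cells.

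The other members were at the edge of detection in alveolar type 2-like cells. All 8 genes with at least 20 UMIs over DJ-1 KO OVA and WT OVA passed 1.5-fold higher, where 25.7% of all genes passed either way (16.7% higher, 9.0% lower), but apart from Tnfrsf9 their levels in DJ-1 KO OVA lay between 4.65 CPM (Cd274) and 15.1 CPM (Ctla4). Fibroblast-like cells of DJ-1 KO OVA held 14.9 CPM of either gene. The 8 T cell markers summed to 65.0 CPM in alveolar type 2-like cells of DJ-1 KO OVA, 23.4 CPM in WT OVA and 38.0 CPM in WT PBS. The 7 levels did not exceed those of fibroblast-like cells beyond counting error and are read as background. In WT OVA over WT PBS 3 of 7 genes passed 1.5-fold, where 15.3% of all genes did (8.31% higher, 7.04% lower), Tnfrsf9 and Cd274 higher and Ctla4 lower, the last with 11 UMIs in WT OVA and 23 in WT PBS.

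Across 11 cell classes and 3 libraries, 33 points that share libraries and depth, the genes whose log level was most alike to each member are given as a description. Ctla4 and Tnfrsf4 were each other's closest genes (Pearson r 0.969), and Foxp3 came next for Tnfrsf4 (0.947). Cd28 was closest to Thy1 (0.982), a pan-T cell surface gene, Icos to Aebp2 (0.971), Tnfrsf18 to Zap70 (0.970), a T cell receptor kinase, and Pdcd1 to Cxcr6 (0.966), a receptor of tissue-resident lymphocytes. The match was weaker for Cd274 (Nfkbid, 0.924), Tnfrsf9 (Nrgn, 0.892), Lag3 (Neb, 0.874) and Pdcd1lg2 (Alpk2, 0.768). The neighbours Cd274 and Pdcd1lg2 were not among each other's 3 closest genes.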

How the data were processed

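Lung cells of 3 libraries were captured with the Chromium 3′ v3 chemistry of 10x Genomics, as the labels' protocols state. The authors deposited UMI counts, not normalized, for each gene in each barcode. Cell Ranger and STAR on mm10 are named in the submitters' processing notes, and the file headers give version 3.1.0. The annotation release is not given in the sources used here. No barcode held under 500 UMIs.

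Barcodes under 200 genes or above 20% mitochondrial UMIs were dropped, and Scrublet (expected rate 0.06, score limit 0.25) removed 69 barcodes from DJ-1 KO OVA, 162 from WT OVA and 80 from WT PBS. Libraries were clustered together without integration on 1978 variable genes (30 components, 15 neighbours, Leiden resolution 1) in Python 3.11.15, scanpy 1.11.5 and igraph 0.11.9. Classes were named from 37 marker lists, needing a score of 1 or more and 3 or more markers detected in 10% of cells. Shares at equal depth are means over 20 random draws of 1000 UMIs per cell. Gene places come from RefSeq annotation of GRCm38.p6. The ratio script was tested on simulated data. Named genes are the 10 members and the 3 genes of highest and lowest ratio of each list. Members and lists were chosen with earlier results of these data known. No p-value was computed.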

Additional observations from a re-analysis of the deposited data

Results flagged for a closer look

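Ctla4 in WT OVA over WT PBS was higher in T cell-like cells (ratio 2.80) and in myeloid-like cells (1.93) but lower in alveolar type 2-like cells (0.357), so that the direction differed between cell classes. The difference between the classes was not tested. The alveolar type 2-like value rests on 11 UMIs in WT OVA and 23 in WT PBS, and in cells without a Cd3 UMI on 3 and 0. The myeloid-like value rests on 91 UMIs in WT OVA and 52 in WT PBS, and in cells without a Cd3 UMI on 11 and 3. With clusters weighted alike the myeloid-like ratio was 0.913. The differing direction is therefore not read as a result.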

How the results depend on the processing

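With 91 of 110 counts of genes past 1.5-fold, the alternatives stayed within 1.5 times the reported count. In T cell-like cells the count in DJ-1 KO OVA over WT OVA, 2 as reported, was 9 with separate clustering of the libraries, 4 after thinning to 1000 UMIs and 4 without the regulatory T-like sub-cluster. It was 1 with per-cell marker scores, with thymocyte-like cells in the class, with median-of-ratios scaling and when scaled without ribosomal protein and mitochondrial genes. In WT OVA over WT PBS, 6 became 1 with separate clustering of the libraries. In myeloid-like cells 4 became 7 with both cells of shared barcodes left out and 8 with cells weighted alike (DJ-1 KO OVA over WT OVA), and 8 became 3 after thinning (WT OVA over WT PBS). In alveolar type 2-like cells 8 became 4 with both cells of shared barcodes left out, 1 after thinning, 3 with at least 50 UMIs and 3 in cells without Cd3 UMIs (DJ-1 KO OVA over WT OVA). There 3 became 7 with doublets kept, 1 at Leiden resolution 2, 0 after thinning and 1 with at least 50 UMIs (WT OVA over WT PBS).

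Of 1008 single ratios 6 changed direction. In WT OVA over WT PBS these were Ctla4 in alveolar type 2-like cells at Leiden resolution 2 (1.11), Pdcd1 in T cell-like cells with separate clustering of the libraries (0.873), and, with clusters weighted alike, Ctla4 (0.913) and Lag3 (0.869) in myeloid-like cells. With clusters weighted alike, DJ-1 KO OVA over WT OVA in alveolar type 2-like cells gave 0.900 for Cd28 and 0.512 for Cd274. Fewer UMIs remain after thinning and under a higher minimum; elsewhere the cause was not tested. Pdcd1lg2 in myeloid-like cells of DJ-1 KO OVA over WT OVA ranged from 6.23 to 10.7, and Tnfrsf9 in alveolar type 2-like cells from 2.80 to 24.0. Cd274 in the same myeloid-like cells ranged from 0.941 to 1.15. No paired analysis was possible because each group has 1 library, and no library could be left out. Alternatives on the Cd3 UMIs, cluster weights, regulatory T-like sub-cluster and ribosomal genes were chosen after seeing the data.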
